A study of Mus musculus with 6 samples.

Results

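The heat shock and endoplasmic reticulum (ER) stress chaperones of the cerebral cortex are described here through 40 genes, chosen by name from the families of protein-folding helpers and from the signaling genes of the unfolded protein response. All 40 were found among the 22527 gene symbols of the arrays, and 105 of the 45077 probe sets carried one of these symbols. The arrays read a transcript with a set of short probes, and many genes have several such probe sets. Each gene was read from its brightest probe set, and its remaining probe sets are given where they tell something more.

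The cortices came from 6 male mice in 3 groups of 2, with an age of 16 weeks in the labels. The study's methods give 16 weeks for the SAMP8 mice it used, and acclimatization, treatment and tests came before the cortices were taken. The age at sampling was therefore likely higher, and the labels do not give it. SAMR1 + Water mice (SAMR1) belong to the senescence-resistant control strain. SAMP8 + Water mice (SAMP8 control) belong to the senescence-accelerated strain, which is used as a model of early learning and memory loss. SAMP8 + STEE mice (STEE-fed SAMP8) are of the same accelerated strain and took an ethanolic extract of sugarcane tops (STEE) by mouth, at 20 mg/kg, for 30 days and through 8 days of behavioral tests, while both water groups received the same volume of water over the same days. All groups were housed singly, and per the study's methods they swam in the Morris water maze and drank the thymidine analog BrdU for part of the treatment. SAMR1 is a related inbred strain and not a littermate control, so the strain comparison covers every genetic difference between both strains.

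The values are the authors' mean log2 signals of the 2 mice of a group after RMA, a method that brings all arrays to 1 distribution. No value for a single mouse was used, the spread between mice is therefore not known here, and no difference below was tested. The main counts are set beside the share of all 22527 genes counted in the same way. For some genes, the share of all genes that differed as much is given too. A gene was counted as higher or lower where its means differed by at least 0.25 on the log2 scale, which is 1.19-fold. SAMP8 control minus SAMR1 and STEE-fed SAMP8 minus SAMP8 control share the SAMP8 control mice, so a high or low SAMP8 control mean enters both with opposite signs, and the difference between STEE-fed SAMP8 and SAMR1 is their sum.

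Chaperones hold newly made or damaged proteins until they fold. In the cytosol, HSP70 proteins bind exposed stretches of a client protein, J-proteins of the DNAJ families bring the clients and start the ATP cycle, and HSP90 finishes the folding of many kinases and steroid receptors. The transcription factor HSF1 switches on their genes when unfolded proteins build up. In the ER, the HSP70 protein BiP, the lectins calnexin and calreticulin and the protein disulfide isomerases fold secreted and membrane proteins, which neurons make in large amounts as receptors, channels and adhesion proteins. The sensors ATF6, IRE1 and PERK watch this compartment and raise ER chaperone genes when it is overloaded.

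The best known control letters of ER chaperone genes are the ER stress element, CCAAT and CCACG with 9 bases between them, to which NF-Y and ATF6 bind. It was searched on both strands in the RefSeq promoter windows (GRCm38.p6) that reach from 250 bases before to 50 bases after a gene start. A window was given for 32 of the 40 genes, and 6 of these 32 (18.8%) held the element, against 37 of 27025 gene symbols with a window (0.137%). The element is known from ER chaperone genes, so a high share among the 40 is no result of these data. The stretches are shown because they belong to 6 genes whose strain differences are described below. Capitals mark the element from its first to its last fixed base, and the sequences run 5′ to 3′ on the strand of the gene.
Hspa5, chr2:34772010-34772058, plus strand: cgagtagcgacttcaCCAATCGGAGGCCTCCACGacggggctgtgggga
Pdia6, chr12:17266476-17266524, plus strand: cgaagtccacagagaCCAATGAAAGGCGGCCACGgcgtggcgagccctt
Dnajc3, chr14:118937812-118937860, plus strand: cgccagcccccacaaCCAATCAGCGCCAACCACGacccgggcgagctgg
Canx, chr11:50325795-50325823, minus strand: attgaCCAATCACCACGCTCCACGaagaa
Calr, chr8:84847060-84847108, minus strand: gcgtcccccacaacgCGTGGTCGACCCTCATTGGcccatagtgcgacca
Hsp90b1, far copy, chr10:86705623-86705671, minus strand: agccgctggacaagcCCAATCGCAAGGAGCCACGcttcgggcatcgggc
Hsp90b1, near copy, chr10:86705518-86705566, minus strand: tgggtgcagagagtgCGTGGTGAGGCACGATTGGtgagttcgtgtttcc
*Calr* and the near copy of *Hsp90b1* held the element in reverse. The copy in *Hspa5* began 65 bases before the gene start and that in *Calr* 162 bases before it. *Hsp90b1* was the member with 2 copies in its window, beginning 212 and 107 bases before the start.

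The heat shock element, 3 adjoining NGAAN units of alternating direction to which HSF1 binds, was found in 3 of the 32 windows (9.38%) and in 0.662% of all symbols. HSF1 is known to switch on such genes, so this share too is no result of these data. *Hspd1* and *Hspe1*, which code for the mitochondrial chaperonin and its lid, lie head to head with overlapping starts in the RefSeq table, and the same letters, inside the *Hspd1* gene and before the start of *Hspe1*, made the match for both. In *Hsph1* the match lay after the start. Capitals mark the 3 units without their outermost bases.
Hspe1, chr1:55088051-55088079, plus strand: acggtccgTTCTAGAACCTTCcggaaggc
Hsph1, chr5:149636280-149636308, minus strand: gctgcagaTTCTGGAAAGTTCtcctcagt
The remaining letters searched, the ER stress element II (ATTGG and CCACG with 1 base between them), the unfolded protein response element (TGACGTGG) and the C/EBP-ATF element (TGATGNAAN), were in 0 of the 32 windows, and in 0.0444%, 0.714% and 4.5% of all symbols. Such matches describe letters in a short window, and their absence says nothing of the factor.

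In SAMP8 control compared with SAMR1, the chaperone genes stood mostly on the higher side. Of the 40 genes, 15 were higher by at least 0.25 and 0 were lower, against 4.25% of all genes higher, 3.84% lower and 8.09% in either direction. The median difference was 0.17, with 36 genes above 0, against 0.00 and 47.1% for all genes. Chaperone genes are bright, and 39 of the 40 lay above the median signal of the arrays. Among the 12991 genes above it, 6.52% were higher. With each group centred on its bright probe sets, 12 chaperone genes in place of 15 were higher. Where a gene had several probe sets, all of them lay above 0 for 18 of 31 chaperone genes (58.1%), against 21.4% of the 10574 genes with several probe sets.

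**Figure D1:**
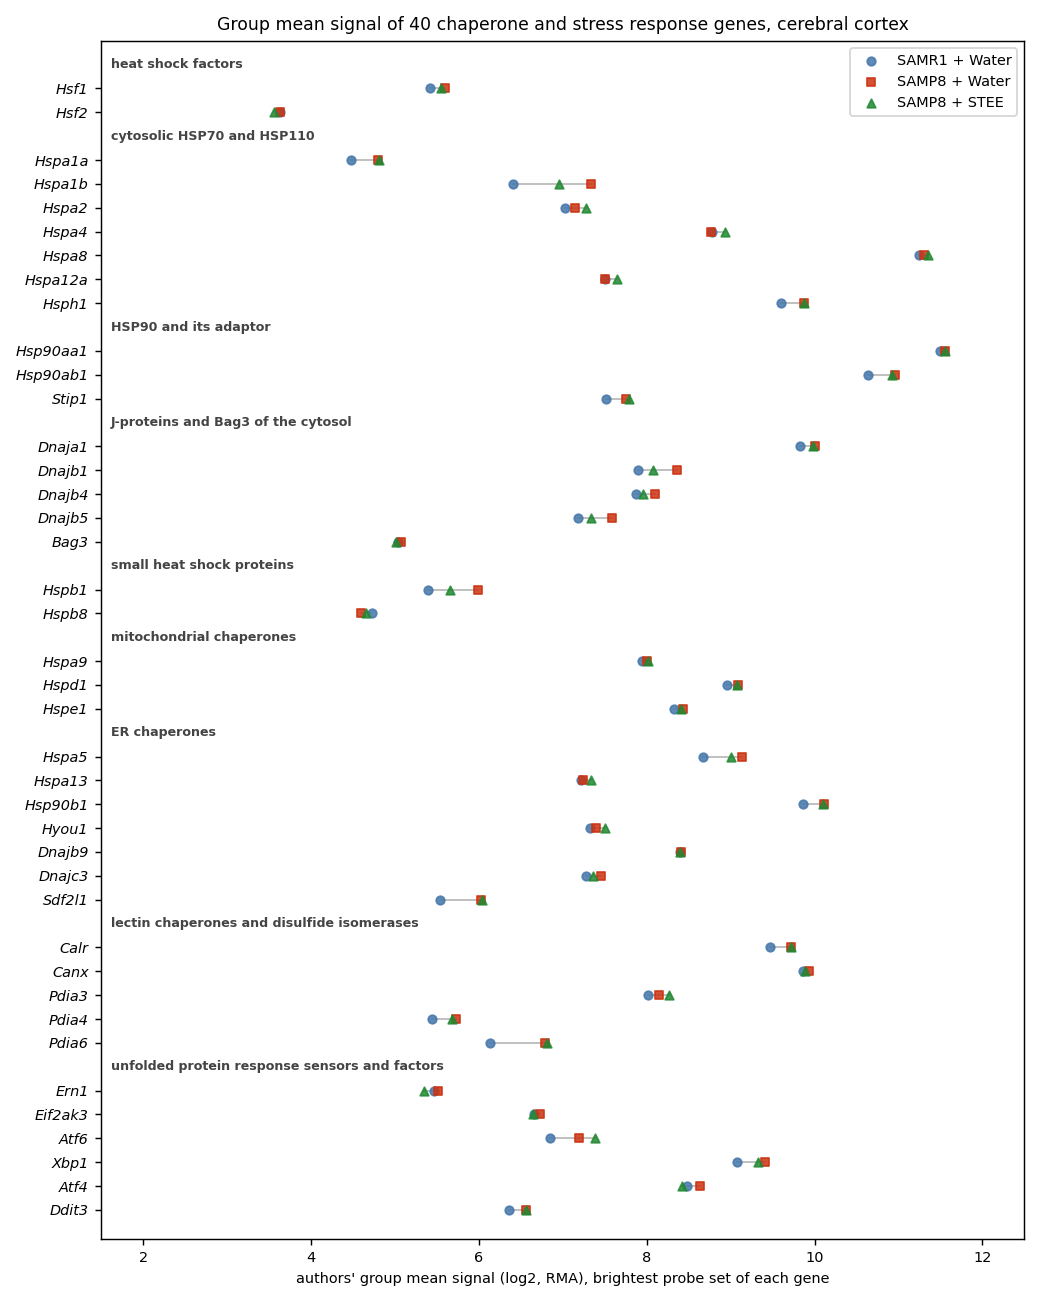
Authors' mean log2 signal (RMA) of the 40 genes on the x axis, 1 row per gene by role, with a circle for SAMR1 + Water, a square for SAMP8 + Water and a triangle for SAMP8 + STEE (each a mean of 2 mice, brightest probe set). In *Hspa1b*, *Dnajb1*, *Dnajb5* and *Hspb1* the triangle stands between circle and square, while in *Pdia6* and *Sdf2l1* it stands with the square.

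Of the heat shock factors, *Hsf1* had mean signals of 5.42, 5.59 and 5.55 in the order SAMR1, SAMP8 control, STEE-fed SAMP8, which is kept below, and a strain difference of 0.17. *Hsf2*, a second heat shock factor, was at 3.63, 3.63 and 3.56, the only gene of the 40 below the median signal, on a probe set that also carries the symbol *9630030I15Rik*.

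The largest strain difference among the 40 was in *Hspa1b*, one of the stress-inducible HSP70 genes. Its mean signal was 6.41 (SAMR1), 7.33 (SAMP8 control) and 6.95 (STEE-fed). The strain difference of 0.92 was 1.89-fold, and 0.568% of all genes differed by as much. Its dimmer probe sets read 5.69, 6.90 and 6.45, and 4.61, 5.97 and 5.34, with strain differences of 1.21 and 1.36, so all 3 probe sets gave the same order of groups. The second of them has a suffix that marks probes which may bind other transcripts. *Hspa1a* is a near-identical gene next to it, and short probes can read both, so the share of each is uncertain. The only probe set of *Hspa1a* was at 4.48, 4.80 and 4.81, a strain difference of 0.32 with no lower mean after STEE. Among 18 other measured genes within 100 kb of both in the RefSeq table, 1 was higher in SAMP8 control (*Zbtb12*, by 0.35) and 1 was lower (*1110038B12Rik*, at 7.71 in SAMR1 and 6.50 in SAMP8 control), named after their values were seen. *Hspa1l*, the testis-type HSP70 gene of the same cluster, was at 2.76, 2.73 and 2.77.

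The constitutive cytosolic HSP70 genes differed less. *Hspa8*, which codes for the HSC70 that serves folding and clathrin uncoating in neurons, was at 11.24 (SAMR1), 11.30 (SAMP8 control) and 11.35 (STEE-fed). *Hspa4*, an HSP110-type exchange factor for HSP70, was at 8.78, 8.77 and 8.93, and *Hspa2* at 7.03, 7.15 and 7.27. *Hspa12a*, a distant HSP70 relative of the brain, was at 7.50, 7.50 and 7.65, but its next probe set read 6.25, 5.76 and 5.80, a strain difference of -0.49, so both disagreed. *Hsph1*, the stress-inducible HSP110, was higher in SAMP8 control by 0.27 (9.60 and 9.87), and by 0.51 on its second probe set.

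Of the HSP90 genes, *Hsp90ab1*, the constitutive form, was at 10.64, 10.96 and 10.92, a strain difference of 0.32 that was 0.38 on the second probe set. *Hsp90aa1*, the inducible form, was at 11.49, 11.55 and 11.55. *Stip1*, the adaptor that hands clients from HSP70 to HSP90, was at 7.51, 7.75 and 7.79, and its strain difference of 0.24 was just short of the line.

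Among the cytosolic J-proteins, *Dnajb1*, the main stress-inducible partner of HSP70, was at 7.90 (SAMR1), 8.36 (SAMP8 control) and 8.07 (STEE-fed). Its strain difference of 0.46 was reached or passed by 1.88% of all genes, and its second probe set gave 0.52. *Dnajb5* was at 7.18, 7.59 and 7.33, with strain differences of 0.41, 0.68 and 0.22 on its 3 probe sets. *Dnajb4* was at 7.87, 8.10 and 7.96 (0.23), and *Dnaja1* differed by 0.17 between strains, with 9.83 in SAMR1 and 9.98 in STEE-fed SAMP8. *Bag3*, an HSP70 co-chaperone that steers clients to autophagy and a known HSF1 target, was nearly level at 5.04, 5.07 and 5.01.

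The small heat shock protein gene *Hspb1* (HSP25), which codes for an ATP-independent holdase, was at 5.39, 5.99 and 5.65, a strain difference of 0.60 or 1.52-fold, and 0.35 on its second probe set. *Hspb8*, the small partner of BAG3, was at 4.72, 4.60 and 4.65. The mitochondrial chaperones were close in all groups. *Hspa9* was at 7.94, 8.00 and 8.02, *Hspd1* at 8.96, 9.09 and 9.08 on a probe set shared with the entry *LOC101056370*, and *Hspe1* at 8.33, 8.43 and 8.41. None of these 3 reached the line in any comparison, against 8.09%, 2.62% and 8.88% of all genes in the strain comparison, the STEE comparison and STEE-fed SAMP8 minus SAMR1.

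In the ER, *Hspa5*, the gene of BiP, was at 8.67 (SAMR1), 9.14 (SAMP8 control) and 9.0 (STEE-fed). The strain difference was 0.47 (1.39-fold, reached by 1.84% of all genes) and 0.52 on the second probe set, but 0.02 on the third, which has that suffix too. *Sdf2l1*, an ER protein that works with BiP and J-proteins, was at 5.53, 6.02 and 6.04, higher in SAMP8 control by 0.49. *Hsp90b1* (GRP94, the HSP90 of the ER) was at 9.86, 10.11 and 10.10, just on the line with 0.25, and at 0.31 on its second probe set. *Dnajc3* (p58IPK, an ER J-protein) was at 7.27, 7.45 and 7.36, and all 5 of its probe sets were above 0 in the strain comparison. *Hyou1* (7.32, 7.40 and 7.50), *Hspa13* (7.21, 7.24 and 7.33) and *Dnajb9* (8.40, 8.41 and 8.40) differed little between strains. All 7 ER chaperones lay above 0 and 3 of them reached the line, where 47.1% of all genes lay above 0 and 4.25% were higher.

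Of the lectin chaperones and disulfide isomerases, 3 of 5 were higher in SAMP8 control and all 5 lay above 0. Of all genes, 4.25% were higher and 47.1% lay above 0. *Pdia6*, an isomerase that also binds the sensor IRE1, had the largest difference outside the heat shock genes, with 6.13 (SAMR1), 6.79 (SAMP8 control) and 6.81 (STEE-fed). The difference of 0.66 was 1.58-fold and was reached by 0.883% of all genes. Its second probe set, below the median signal, gave 0.29. *Pdia4* was at 5.44, 5.73 and 5.68 (0.29), and *Calr* at 9.47, 9.72 and 9.72, with 0.25, 0.21 and 0.28 on its 3 probe sets. *Canx* differed by 0.07 on its brightest probe set (9.86, 9.93 and 9.88) and by 0.38 on the next. *Pdia3*, the isomerase that works with both lectins, was at 8.01, 8.14 and 8.27.

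Of the sensors and factors of the unfolded protein response, *Xbp1*, whose mRNA is spliced by IRE1 into an activator of ER genes, was at 9.07, 9.41 and 9.33. Its strain difference was 0.34, and 0.54, 0.37 and 0.09 on the dimmer probe sets. These values do not separate the spliced from the unspliced form. *Atf6* was at 6.85, 7.19 and 7.38, a strain difference of 0.34, but 0.11 and 0.00 on its dimmer probe sets. *Ern1* (IRE1) was at 5.46, 5.51 and 5.35, and *Eif2ak3* (PERK) at 6.66, 6.73 and 6.64. *Atf4*, the factor made when PERK slows translation, was at 8.48, 8.63 and 8.42, and its second probe set had a strain difference of -0.13. *Ddit3* (CHOP), a death-promoting target of ATF4, was at 6.36, 6.56 and 6.56. Thus 2 of these 6 reached the line, against 4.25% of all genes higher, and the ATF4 and CHOP genes did not.

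**Figure D2:**
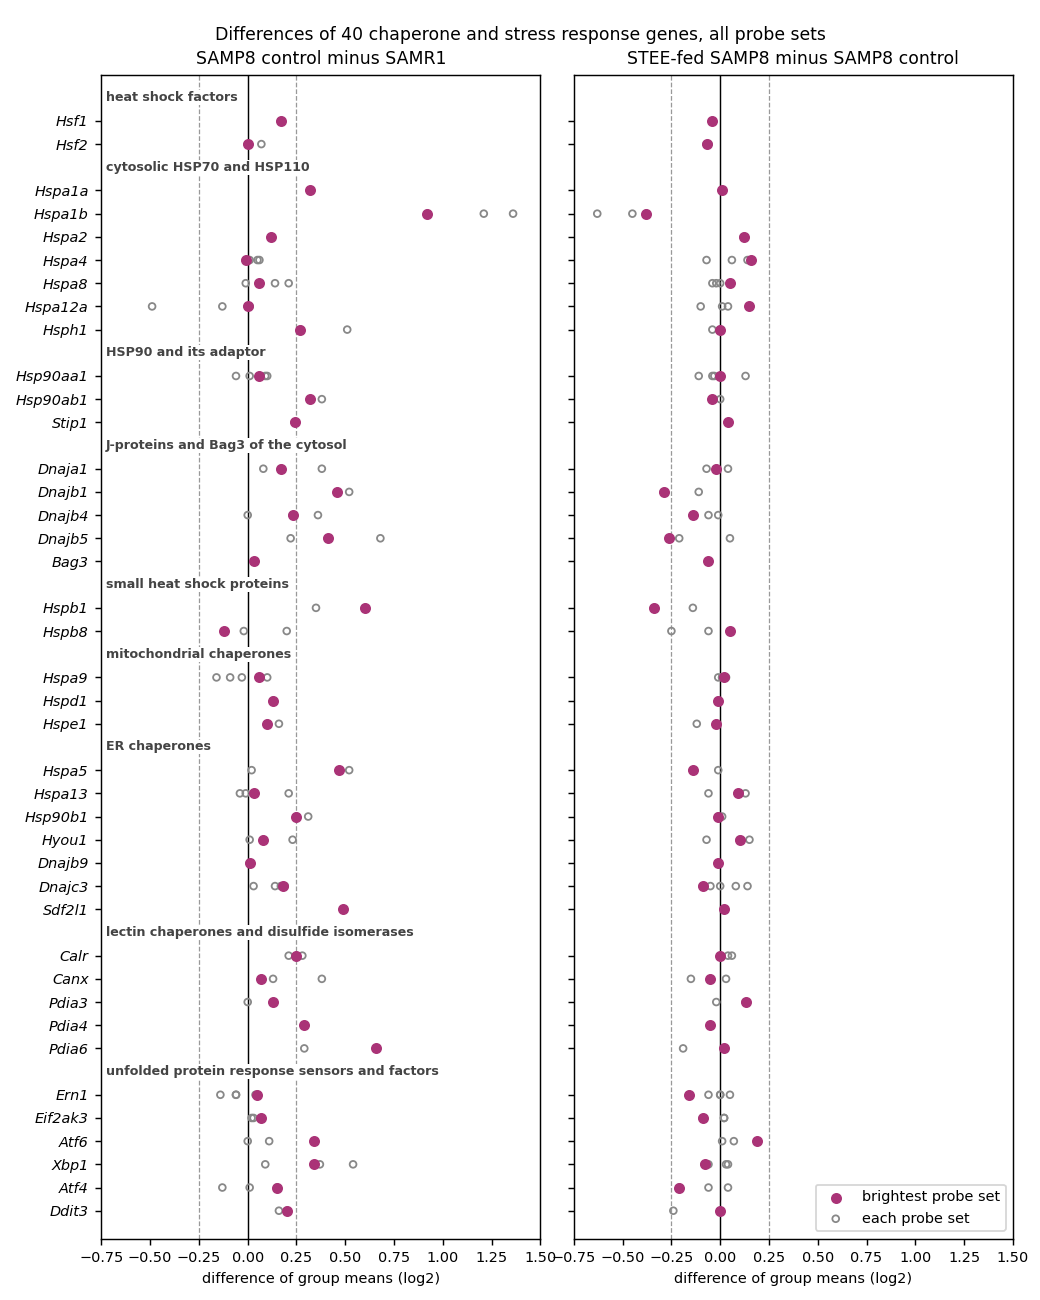
Difference of group means (log2) of each gene in the strain comparison (left) and the STEE comparison (right), with filled points for the brightest probe set, open circles for every other probe set and dashed lines at -0.25 and 0.25. On the left 15 filled points lie at or right of the upper line and 0 at the lower one; on the right 4 lie left of the lower line.

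The 6 genes with an ER stress element shown above all lay above 0 in the strain comparison, and 4 of them (*Hspa5*, *Pdia6*, *Calr* and *Hsp90b1*) reached the line. Over the genome, 22 measured gene symbols held the element, and 9 of them (40.9%) were higher in SAMP8 control and 0 lower, against 4.25% and 3.84% of all genes, with a median difference of 0.105. The count takes in 4 of the chaperone genes and 3 symbols that share 1 probe set. Of the 16 symbols outside the chaperone genes, 5 were higher. These were *Creld2*, an ER stress-induced isomerase-like gene (0.34), *Spats2l* (0.29), and *Xlr3a*, *Xlr3b* and *Xlr3c*, which share that probe set and thus 1 value (4.71 in SAMR1, 5.83 in SAMP8 control and 5.01 after STEE). After STEE these 3 symbols were lower by that 1 probe set, and 0 of the 22 were higher. Of all genes, 1.22% were lower and 1.4% higher. The lower count is thus 1 value and does not describe the genes with the element. The 5 higher symbols outside the chaperone genes were named after their values were seen. Of the 89 measured symbols with a heat shock element, 5 were higher (5.62%) and 2 lower (2.25%), near the 4.25% and 3.84% of all genes, with a median of 0.02.

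After STEE, most chaperone genes were close to SAMP8 control, and the few that differed were heat shock genes of the cytosol with lower means. Of the 40 genes, 4 were lower by at least 0.25 and 0 were higher, against 1.22% of all genes lower (1.48% among genes above the median signal), 1.4% higher and 2.62% in either direction. The median difference was -0.01, with 22 genes below 0, against 0.00 for all genes. This count rests on the brightest probe sets: when a gene's probe sets were averaged, *Hspa1b*, at -0.49, was the 1 gene of the 40 that reached the line, against 1.67% of all genes in either direction.

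*Hspa1b* was lower after STEE, with 7.33 in SAMP8 control against 6.95 with the extract. The difference of -0.38 was equalled or passed in size by 0.573% of all genes, and the dimmer probe sets gave -0.45 and -0.63. Its STEE-fed mean stayed 0.54, 0.76 and 0.73 above SAMR1 on the 3 probe sets. *Hspb1* differed by -0.34 (-0.14 on the second probe set), *Dnajb1* by -0.29 (-0.11 on the second) and *Dnajb5* by -0.26, where the dimmer probe sets gave -0.21 and 0.05. In all 4 genes the STEE-fed mean lay between SAMP8 control and SAMR1, as it did by smaller differences in ER genes such as *Hspa5* and *Dnajc3*, and both comparisons rest on the same SAMP8 control mice.

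Most ER genes were close to SAMP8 control after STEE. *Hspa5* differed by -0.14 after STEE and by -0.01 on its second probe set, and *Sdf2l1*, *Hsp90b1*, *Pdia6* and *Calr* by 0.02, -0.01, 0.02 and 0.00. Of the 12 ER chaperones, lectins and isomerases, 0 reached the line in either direction, against 2.62% of all genes. With so low a share, a count of 0 among 12 genes says little. *Atf4* differed by -0.21 and *Atf6* by 0.19, the ends of the range among the sensors and factors, and their second probe sets gave -0.06 and 0.01. No test compared the heat shock genes with the ER genes.

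STEE-fed SAMP8 compared with SAMR1 again had the chaperone genes on the higher side. In this comparison 13 of the 40 were higher and 0 lower, against 5.35% of all genes higher, 3.53% lower and 8.88% in either direction. Among the genes above the median signal, 8.38% were higher. The median difference of the 40 genes was 0.15. The largest were *Pdia6* (0.68), *Hspa1b* (0.54), *Atf6* (0.53) and *Sdf2l1* (0.51). The dimmer probe sets gave 0.10 for *Pdia6*, 0.12 and 0.07 for *Atf6*, and 0.76 and 0.73 for *Hspa1b*, while *Sdf2l1* has 1 probe set. *Hspa5* and *Hspa1a* each differed by 0.33. *Dnajb1* and *Dnajb5* differed by 0.17 and 0.15 on their brightest probe sets and by 0.41 and 0.47 on the next, so the probe set read decides whether they count as higher than SAMR1. *Pdia3* was higher by 0.26 and its dim second probe set differed by -0.02. With each group centred on its bright probe sets the count was 6 in place of 13, since many of these differences lay close to the line.

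**Figure D3:**
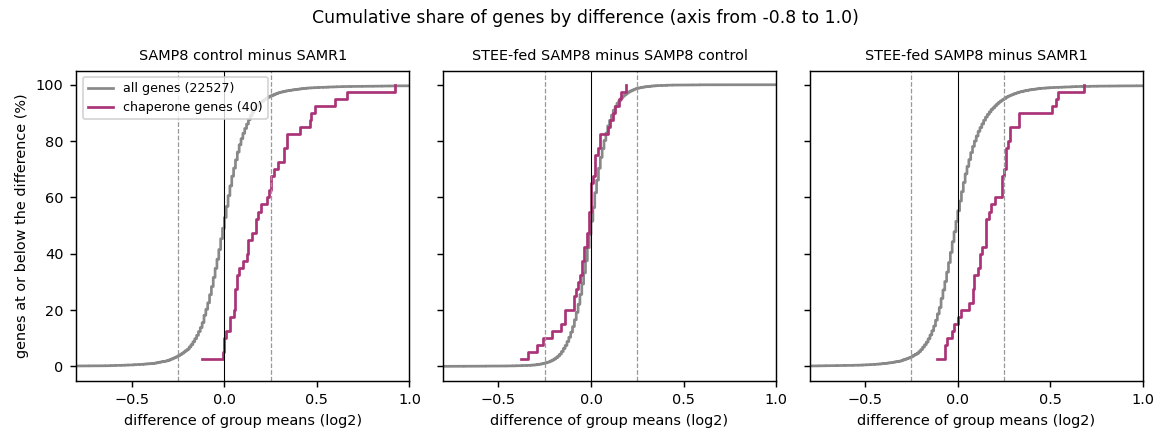
Cumulative share of genes (y axis, percent) at or below a difference of group means (x axis, log2, shown from -0.8 to 1.0) for all 22527 genes in grey and the 40 chaperone genes in purple, in each of the 3 comparisons, with dashed lines at -0.25 and 0.25. The purple line lies to the right of the grey one where SAMR1 is the reference (medians 0.17 and 0.15) and runs along it in the STEE comparison (median -0.01) apart from 4 genes at the lower end.

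The wider family showed smaller shifts. Of 46 other cytosolic and mitochondrial chaperone genes, 5 had a higher mean in SAMP8 control (*Fkbp4* by 0.48, *Dnaja4* by 0.41, *Chordc1* by 0.32, *Hspb3* by 0.28 and *Ahsa1* by 0.27) and 1 was lower (*Unc45a*, -0.40), with a median of 0.075. That is 10.9% higher and 2.17% lower, against 4.25% and 3.84% of all genes. Except for the muscle-type small heat shock protein gene *Hspb3*, the higher ones code for co-chaperones of HSP70 or HSP90. After STEE, 1 of the 46 (2.17%) was higher, 1 (2.17%) was lower (*Serpinh1*, -0.27), and the median was 0.005. Both shares were near those of all genes, 1.4% higher and 1.22% lower. The higher one was *Fkbp5*, a glucocorticoid-induced HSP90 co-chaperone, at 6.51 (SAMR1), 6.61 (SAMP8 control) and 7.07 (STEE-fed). Apart from *Fkbp5*, the genes of this list are named because they reached the line, after their values were seen.

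Of 43 other genes of the unfolded protein response, 4 were higher in SAMP8 control (*Ddit4* by 0.48, *Manf* by 0.47, *Creld2* by 0.34 and *Selk* by 0.28) and 1 was lower (*Eif2ak4*, -0.27), with a median of 0.06. Here 9.3% were higher and 2.33% lower, against 4.25% and 3.84% of all genes. *Manf* codes for a secreted ER stress protein with trophic action on neurons. *Herpud1* and *Dnajb11*, the 2 genes of this list whose windows held the ER stress element II, had strain differences of 0.17 and 0.23, short of the line. Of the 9 measured symbols with that element, 0 reached the line between strains, against 8.09% of all genes, so the count says little. In STEE-fed SAMP8 compared with SAMR1, 2 of the 9 (22.2%) were higher, against 5.35% of all genes. After STEE, 0 of the 43 were higher and 1 (2.33%) was lower (*Eif2ak2*, the interferon-induced kinase PKR, -0.29), and the median was 0.01. Of all genes, 1.4% were higher and 1.22% lower, so these counts were near the background. The genes of this list are named because they reached the line or held the element, after their values were seen.

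Genes of other processes also differed in the same mice. Immediate-early genes, which neurons switch on within minutes of activity or handling, had a mean level over 13 genes of 6.87 (SAMR1), 7.08 (SAMP8 control) and 6.51 (STEE-fed). After STEE 10 of the 13 were lower, against 1.22% of all genes. Of these 13, 0 were above 0, and the median difference was -0.57. *Fos* was at 8.66 and 7.46, *Arc* at 8.36 and 7.23 and *Egr2* at 5.77 and 4.54 without and with the extract. In the strain comparison 6 of the 13 immediate-early genes were higher, against 4.25% of all genes. Their part in the heat shock gene differences was not tested.

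Marker genes of other brain regions and cell types also differed between the groups. Of all genes, 4.25% were higher and 3.84% lower in SAMP8 control than in SAMR1. The cortical neuron markers *Camk2a* (10.97, 10.98 and 11.00) and *Slc17a7* (7.05, 7.10 and 7.19) were present and close in all groups. Striatal markers were higher in SAMP8 control for 5 of 5 genes, with a median difference of 0.40 and mean levels of 6.99, 7.56 and 7.62 in SAMR1, SAMP8 control and STEE-fed SAMP8. Oligodendrocyte markers were lower for 4 of 6 genes, with mean levels of 9.79, 9.48 and 9.47. Choroid plexus markers were lower for 3 of 5, led by *Ttr* at 10.20, 8.24 and 9.33, while *Kl* and *Folr1* lay between 3.15 and 3.64 in all groups. The other lower markers, *Kcnj13* (3.68, 3.25 and 3.47) and *Otx2* (2.87, 2.55 and 2.57), were also below the median signal, so *Ttr* was the only bright one. Markers of astrocytes (5 genes), microglia (5) and blood (3) had 0 genes at the line between strains, and endothelium had 1 of 5 (*Cldn5*, -0.28). The part of these shares in the chaperone differences was not tested. In whole tissue, fewer cells of a type and less RNA per cell cannot be told apart, nor can a strain difference in transcript level and one in the sequence under a probe.

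**Figure D4:**
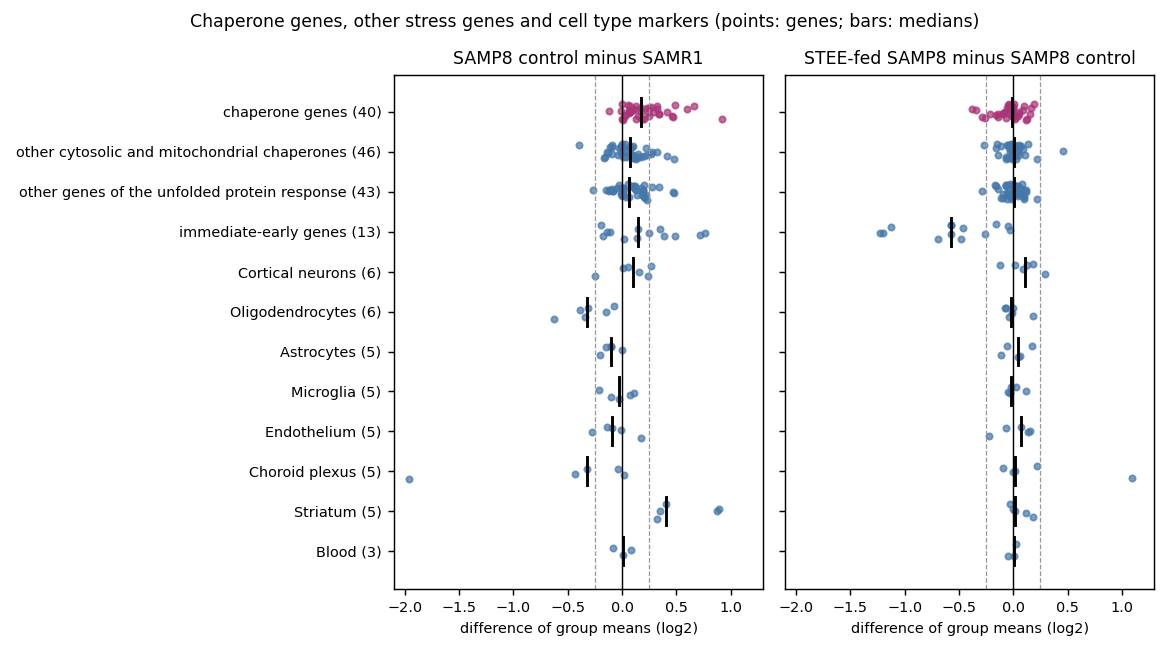
Difference of group means (x axis, log2) for each gene of the lists named on the y axis (number of genes in brackets), in the strain comparison (left) and the STEE comparison (right). Points are genes, black bars are medians and dashed lines stand at -0.25 and 0.25; the bar of the chaperone genes is at 0.17 on the left and -0.01 on the right, and that of the immediate-early genes at -0.57 on the right.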

How the data were processed

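Total RNA of 6 cortices (3 groups of 2) was hybridized to Affymetrix array strips for the mouse genome. RMA summarization was done by the authors in Expression Console, and group comparisons in Transcriptome Analysis Console. The deposited data are 2 tables of 45077 probe sets with log2 group means, written to 2 decimals as bi-weight averages, beside linear fold changes, ANOVA p-values and FDR p-values of their comparisons, which were not used. Groups follow the sample labels. The SAMP8 + Water column was the same in both tables for 100% of probe sets, so STEE-fed SAMP8 was also compared with SAMR1.

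Differences of log2 group means were computed with Python 3.11.15, numpy 2.4.6 and pandas 2.3.3, and plotted with matplotlib 3.10.9. Gene symbol entries were split, 5694 probe sets without a symbol were left out of the gene counts, and a gene's main value came from its brightest probe set by the mean of the 3 groups. The counting of differences was tested on simulated data. With 2 arrays per group, their number limits the precision. No test was made, because the tables give no spread apart from the unused comparisons.

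The 40 genes, the wider lists and the markers were chosen with earlier results of these data known. All 40 genes were to be named, with marker genes and those genes of wider lists that differed by at least 0.5 in any comparison; others are said to be named after their values were seen. 1 marker was matched by an older symbol (*Drd1a*). Promoter windows came from RefSeq (GRCm38.p6) and were given for 32 genes. Residues at the C-terminal ends of the proteins were not analysed here. Alternatives were the mean over a gene's probe sets, its second brightest probe set, single-symbol probe sets, lines of 0.15 and 0.5, a filter on dim genes and centring each group on the median of all or of bright probe sets (mean log2 signal above 7).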

Additional observations from a re-analysis of the deposited data

How the results depend on the processing

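The main limits are the 2 mice per group and the use of group means. No paired analysis was possible because the columns are group means and carry no replicate numbers, and for the same reason no mouse could be left out. The strain comparison kept 15 higher genes with single-symbol probe sets and with the filter on dim genes, and 13 of them with the mean over a gene's probe sets, where *Atf6* and *Calr* were lost. Read from the second brightest probe set of the 31 genes that have one, 13 genes differed (10 of them shared), *Hspa12a* being lower, and the median was 0.19. The line at 0.5 left 3 genes in the strain comparison (1.58% of all genes), 0 in the STEE comparison (0.244%) and 4 in STEE-fed SAMP8 minus SAMR1 (1.67%). The line at 0.15 gave 22 genes in the strain comparison (22.1% of all genes), 9 in the STEE comparison (12.9%) and 23 in STEE-fed SAMP8 minus SAMR1 (23.8%). In the STEE comparison, 1 gene in place of 4 was left with the mean over all probe sets (1.67% of all genes) and with the second brightest probe set. The same held for the mean over a gene's probe sets above the median signal, a choice added after seeing the data. *Dnajb1*, *Dnajb5* and *Hspb1* were lost each time. That last choice moved the medians to 0.193 in the strain comparison and 0.193 in STEE-fed SAMP8 minus SAMR1. Centring on bright probe sets, a shift of 0.04, 0.02 and 0.06, moved the medians to 0.13 in the strain comparison, -0.03 in the STEE comparison and 0.09 in STEE-fed SAMP8 minus SAMR1. It left 12 genes in place of 15 in the strain comparison, where *Calr*, *Hsp90b1* and *Hsph1* were lost. The STEE comparison kept its 4 genes, and in STEE-fed SAMP8 minus SAMR1 6 genes in place of 13 reached the line. On the second brightest probe set, 6 of the 13 genes of that comparison still reached the line and 7 others joined them. Of the 7 lost, *Hspa1a*, *Sdf2l1* and *Stip1* have 1 probe set, and *Atf6*, *Hspb1*, *Pdia3* and *Pdia6* were lost on their dimmer one. *Pdia3* turned from 0.26 to -0.02, and the cause was not tested.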
